A study of Cricetulus griseus with 9 samples.

Results

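The deposited expression table of a Chinese hamster ovary line holds 15557 genes, of which 7 are described here. These 7 encode enzymes that trim and build the N-linked glycans of secreted and membrane proteins. They are a fixed selection and not the whole pathway. They were taken by mouse Ensembl identifier, in a fixed order that pairs them with the symbols Fut8, Mgat1, Mgat2, B4galt1, St3gal4, Man1a and Man2a1. All 7 identifiers are rows of the table, none was dropped, and each was above 0 in all 9 libraries, so none was unexpressed. The files themselves give identifiers without symbols.

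CHO-K1 is an established epithelial-like line from Chinese hamster ovary that is used to produce recombinant glycoproteins. All cells grew in phenol red IMEM with charcoal-stripped fetal bovine serum and were harvested 48 h after lipid transfection with Lipofectamine RNAiMAX. There were 3 groups of 3 libraries: one given anti-miR-29a, one given pre-miR-29a and one given pre-miR-29b-1. A pre-miR is a synthetic precursor that supplies the microRNA of its name. Per the submitters, the anti-miR inhibits miR-29a and miR-29b-1 alike. The series text mentions separate experiments without saying whether each held all 3 molecules, and if each held 1, the molecule cannot be told apart from its experiment. No label states that replicate libraries were separate cultures, and the p-values therefore reflect a spread between libraries that may be technical. Neither untreated cells nor cells with a control RNA were analysed here, so a difference between a pre-miR and the anti-miR cannot be assigned to one of them.

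N-glycans are attached to proteins in the endoplasmic reticulum as a mannose-rich precursor and are remodelled in the Golgi. Man1a, a class I alpha-mannosidase, trims mannose. Mgat1 then adds the N-acetylglucosamine that commits a glycan to the hybrid and complex types, Man2a1 (alpha-mannosidase II) removes further mannose, and Mgat2 starts the other arm. Fut8 adds the core fucose, B4galt1 adds galactose to the arms, and St3gal4 caps galactose with sialic acid. Core fucose, galactose and sialic acid are properties for which recombinant antibodies and other products of CHO cells are monitored. The miR-29 microRNAs have a common seed, the stretch that pairs with target mRNAs, and are known for lowering collagen and other matrix transcripts.

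Levels are given in FPKM, fragments per kilobase of gene model scaled to library size. On this scale per unit of length different genes can be compared, as far as their gene models are right. Read from the steps of the lowest values, the libraries held 15620000 to 21450000 implied reads. The means were 17250000 ± 1460000 (SD, n = 3) with the anti-miR, 18650000 ± 1330000 with pre-miR-29a, and 20380000 ± 1130000 with pre-miR-29b-1. This implied depth was thus lowest, on average, in the group in which the 7 transcripts stood highest. Its part in the results was not tested. It is the total by which the values of a library were divided. As the scaling was not given, it may differ from the reads of that library. The 7 genes rested on 242 to 5980 implied reads a library. The levels of miR-29 itself and of its known targets were not analysed here, so the labels were not checked against these libraries.

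All 7 transcripts stood higher with anti-miR-29a than with either pre-miR, in every library. The differences ran from 1.09-fold for Mgat2 to 1.57-fold for Fut8. Against pre-miR-29b-1 all 7 passed the test, and against pre-miR-29a 6 of 7 did, with Mgat2 as the exception. Of all 9504 tested genes, 55.2% and 58.4% passed in these comparisons, in either direction. The groups did not overlap for 67.6% and 62.2% of all tested genes. Between the pre-miRs none of the 7 passed, where 0.0105% of tested genes did. In bulk RNA, fewer cells with a transcript and less of it per cell cannot be told apart.

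**Figure D1:**
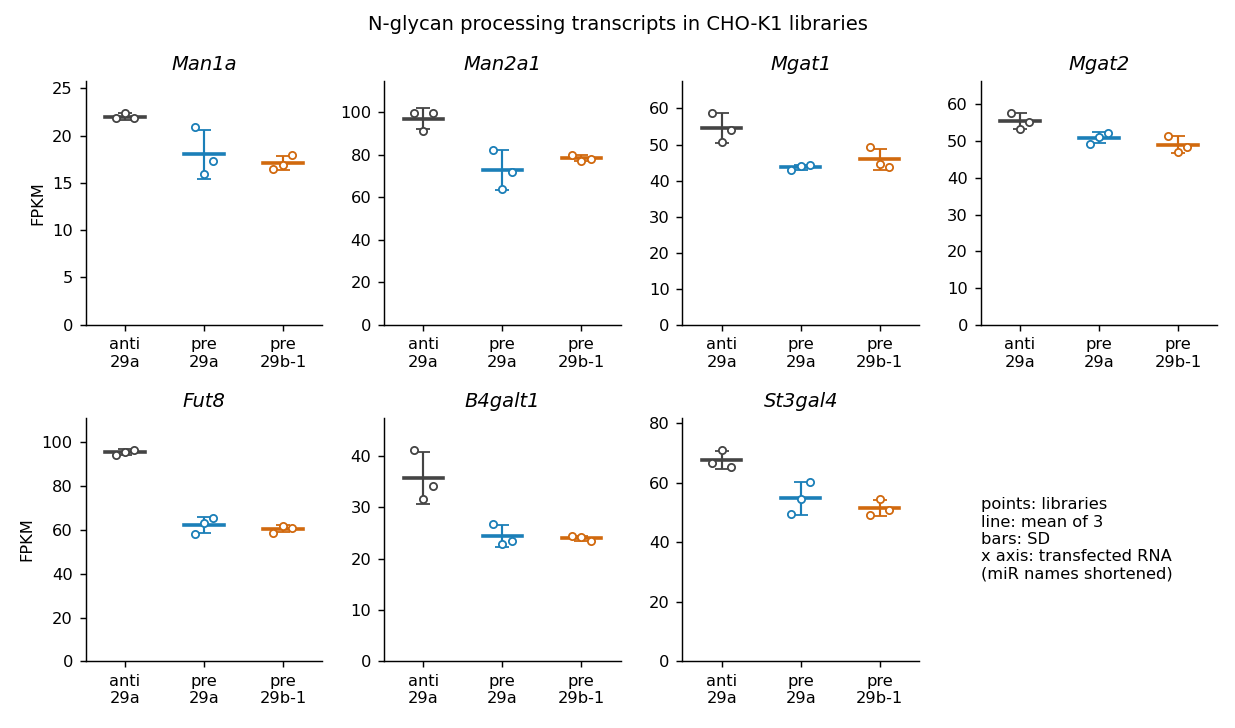
FPKM of the 7 N-glycan processing transcripts in each library (points), with the group mean (line) and SD (bars), by transfected RNA on the x axis. Each panel has its own FPKM axis from 0. In every panel the 3 anti-miR-29a libraries lie above all 6 pre-miR libraries, with the widest step for Fut8.

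With anti-miR-29a, Man2a1 averaged 96.9 ± 4.82 FPKM (SD, n = 3) and Fut8 95.4 ± 1.29 FPKM, and their libraries overlapped. St3gal4 followed at 67.6 ± 3.08 FPKM, below both and above Mgat2 at 55.5 ± 2.15 and Mgat1 at 54.5 ± 4.07 FPKM, which overlapped each other. B4galt1 at 35.7 ± 5.01 and Man1a at 22.0 ± 0.318 FPKM stood apart from their neighbours. With pre-miR-29b-1, Man2a1 at 78.4 ± 1.42 FPKM was clear of Fut8 at 60.5 ± 1.67 FPKM, and Fut8 was clear of St3gal4, Mgat2 and Mgat1, whose libraries overlapped between 43.8 and 54.5 FPKM. With pre-miR-29a, Man2a1 (72.8 ± 9.27 FPKM), Fut8 (62.2 ± 3.67), St3gal4 (54.7 ± 5.50) and Mgat2 (50.9 ± 1.51) each overlapped the next in the order, and Mgat1 stood below them at 43.7 ± 0.707 FPKM. In all 3 groups B4galt1 and Man1a were the lowest of the 7, in that order and without overlap. The position of these genes among the 9504 genes tested ranged widely: 72.0% of tested genes had a lower mean FPKM than Man2a1 and 30.0% a lower one than Man1a.

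Fut8, the only fucosyltransferase known to add core fucose in mammals, differed most. It stood at 94.1, 95.5 and 96.6 FPKM in the anti-miR-29a libraries, at 58.7, 61.9 and 61.0 FPKM with pre-miR-29b-1, and at 58.2, 63.0 and 65.4 FPKM with pre-miR-29a. The anti-miR-29a libraries were tight and far above the rest: their lowest value was higher than the highest pre-miR value by more than the whole range of the 6 pre-miR libraries. Fold changes here are on the log2(FPKM + 1) scale, which slightly understates them, and are pre-miR minus anti-miR-29a. For Fut8 the change was -0.65 with pre-miR-29b-1 (SE 0.052, 95% interval -0.76 to -0.53, limma adjusted p 4.91e-06). It was -0.61 with pre-miR-29a (SE 0.052, interval -0.73 to -0.50, limma adjusted p 6.15e-06). Among all tested genes, 13.7% and 17.1% had a larger change in either direction in these comparisons. The transcript was past the threshold in 15 of 15 alternative analyses of each comparison. Its rank over B4galt1 was less firm with pre-miR-29a. Without pre-miR-29a replicate 1, Fut8 stood at -0.56 and B4galt1 at -0.59. Without anti-miR-29a replicate 2, both stood at -0.61. Fut8 (ENSMUSG00000021065) lies on scaffold JH000281 of the assembly CriGri_1.0, from 608848 to 730818 on the plus strand, with 9 coding exons.

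B4galt1, a galactosyltransferase of the Golgi, came next. Its anti-miR-29a libraries stood at 41.3, 31.6 and 34.2 FPKM, against 24.4, 24.2 and 23.4 FPKM with pre-miR-29b-1 and 26.8, 22.9 and 23.5 FPKM with pre-miR-29a. The groups did not overlap, but anti-miR-29a replicate 1 was well above its partners, and the coefficient of variation in that group was 14.0%. The log2 change was -0.55 with pre-miR-29b-1 (SE 0.095, interval -0.76 to -0.33, limma adjusted p 8.17e-04) and -0.52 with pre-miR-29a (SE 0.095, interval -0.74 to -0.31, limma adjusted p 9.37e-04). In folds, anti-miR-29a was 1.46 times and 1.44 times the pre-miR level. Leaving out each library in turn gave -0.63 to -0.44 and -0.61 to -0.42. At 242 implied reads in its shallowest library, B4galt1 had the least depth of the 7, and counting alone would give an SD of 5.82% at its median count. ENSMUSG00000028413 lies on JH001541 from 265294 to 283664, minus strand, with 5 coding exons in a model of 789 bases.

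St3gal4, a sialyltransferase that caps galactose, stood at 66.5, 71.1 and 65.2 FPKM with anti-miR-29a and at 49.1, 54.5 and 50.8 FPKM with pre-miR-29b-1. The pre-miR-29a libraries held 49.3, 54.4 and 60.3 FPKM. These last libraries were the more scattered, and their highest value came closest to the anti-miR-29a range without reaching it. The log2 change was -0.39 with pre-miR-29b-1 (SE 0.075, interval -0.56 to -0.22, limma adjusted p 0.00161), a level 1.31 times higher with anti-miR-29a. With pre-miR-29a it was -0.31 (SE 0.075, interval -0.47 to -0.14, limma adjusted p 0.00578), or 1.24 times. Weighting the libraries by their estimated quality shrank the latter to -0.17, still past the threshold (limma adjusted p 0.0221). ENSMUSG00000032038 lies on JH000329 from 1022015 to 1028828, minus strand, with 10 coding exons.

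Both trimming mannosidases among the 7, Man2a1 and Man1a, were lower with the pre-miRs. Other mannosidases of the pathway are not reported here. Man2a1, alpha-mannosidase II, stood at 99.7, 91.3 and 99.7 FPKM with anti-miR-29a, at 80.0, 77.2 and 78.1 FPKM with pre-miR-29b-1 and at 82.4, 63.9 and 72.0 FPKM with pre-miR-29a. The pre-miR-29a libraries spread over a range several times that of the pre-miR-29b-1 libraries, and both groups stayed under the anti-miR-29a values. The log2 change was -0.30 with pre-miR-29b-1 (SE 0.082, interval -0.48 to -0.12, limma adjusted p 0.0107) and -0.41 with pre-miR-29a (SE 0.082, interval -0.60 to -0.23, limma adjusted p 0.00163). The first of these calls ended under quantile normalization, at -0.22 (limma adjusted p 0.0518). ENSMUSG00000024085 lies on JH000153 from 1634240 to 1784041, plus strand, with 22 coding exons. It had the longest model (3444 coding bases), the highest mean level (82.7 FPKM over all libraries) and the most implied reads of the 7.

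Man1a, the class I mannosidase, was the least abundant. It stood at 21.8, 22.4 and 21.8 FPKM with anti-miR-29a, at 16.5, 16.9 and 17.9 FPKM with pre-miR-29b-1 and at 20.9, 15.9 and 17.3 FPKM with pre-miR-29a. One library, pre-miR-29a replicate 1, lay just under the anti-miR-29a values, and the other pre-miR libraries lay well below them. The log2 change was -0.35 with pre-miR-29b-1 (SE 0.088, interval -0.54 to -0.15, limma adjusted p 0.00732) and -0.28 with pre-miR-29a (SE 0.088, interval -0.48 to -0.09, limma adjusted p 0.0184). The call with pre-miR-29a ended under quantile normalization, at -0.16 (limma adjusted p 0.0973). It also ended without anti-miR-29a replicate 2 (adjusted p 0.0525), pre-miR-29a replicate 2 (0.0604) or pre-miR-29a replicate 3 (0.0607), all by limma. ENSMUSG00000003746 lies on JH000212 from 1838435 to 2006923, plus strand, with 13 coding exons.

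The N-acetylglucosaminyltransferases that start the arms, Mgat1 and Mgat2, had small differences. Mgat1 stood at 58.8, 50.6 and 54.1 FPKM with anti-miR-29a, at 49.2, 44.7 and 43.8 FPKM with pre-miR-29b-1 and at 42.9, 44.1 and 44.2 FPKM with pre-miR-29a. Its groups came close, with the highest pre-miR-29b-1 library just under the lowest anti-miR-29a library. The log2 change was -0.24 with pre-miR-29b-1 (SE 0.065, interval -0.39 to -0.10, limma adjusted p 0.00992) and -0.31 with pre-miR-29a (SE 0.065, interval -0.45 to -0.16, limma adjusted p 0.00237). Mgat1 was past the threshold in 15 of 15 alternatives of each comparison. ENSMUSG00000020346 is a single coding exon on JH000448 from 1191739 to 1193082, plus strand.

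Mgat2 stood at 57.7, 53.4 and 55.2 FPKM with anti-miR-29a, at 51.5, 47.0 and 48.4 FPKM with pre-miR-29b-1 and at 49.3, 51.2 and 52.3 FPKM with pre-miR-29a. These were the smallest differences of the 7 genes, although the groups did not overlap. The log2 change was -0.18 with pre-miR-29b-1 (SE 0.053, interval -0.29 to -0.06, limma adjusted p 0.0172). With pre-miR-29a it was -0.12 (SE 0.053, interval -0.24 to -0.00), which missed the threshold (limma adjusted p 0.0739), and -0.04 under quantile normalization. The call with pre-miR-29b-1 ended under quantile normalization, at -0.10 (limma adjusted p 0.116). It also ended without pre-miR-29b-1 replicate 2 (0.0750), pre-miR-29b-1 replicate 3 (0.0548) or anti-miR-29a replicate 1 (0.0645), as limma adjusted p-values. ENSMUSG00000043998 is likewise a single coding exon, on JH002691 from 73546 to 74874, plus strand.

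**Figure D2:**
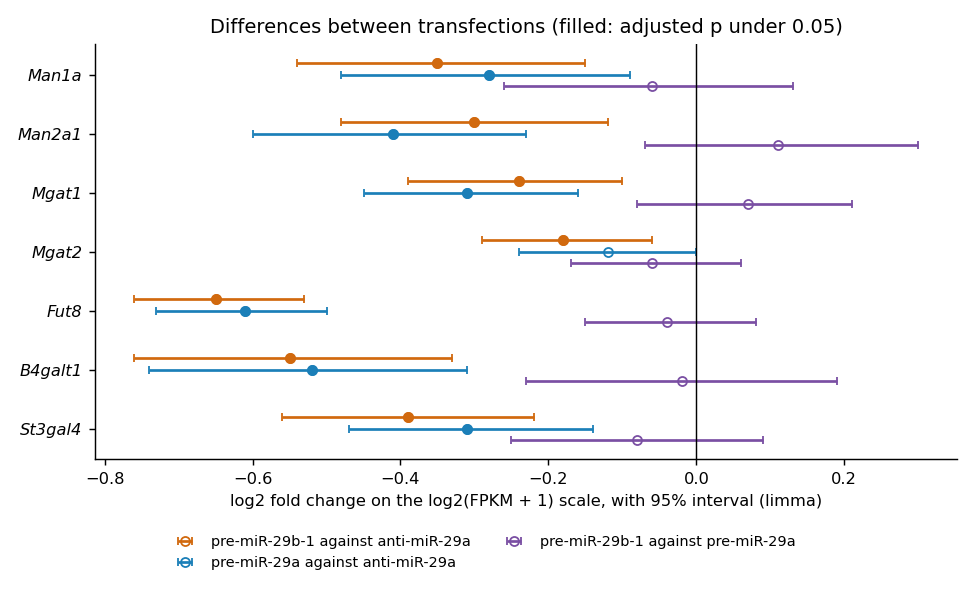
Log2 fold changes of the 7 transcripts on the log2(FPKM + 1) scale with 95% intervals from limma, for each pre-miR against the anti-miR and for one pre-miR against the other. Filled points have an adjusted p under 0.05: 7 for pre-miR-29b-1, 6 for pre-miR-29a and 0 between the pre-miRs, whose intervals all include 0. Of all tested genes, 55.2%, 58.4% and 0.0105% were called in the same order, in either direction.

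These counts stand against a broad background of differences. With pre-miR-29b-1, 7 of 7 enzymes were called lower and 0 higher, where 29.4% of all tested genes were called lower and 25.8% higher (limma, adjusted p under 0.05). With pre-miR-29a, 6 of 7 were called lower and 0 higher, where 30.9% of tested genes were called lower and 27.5% higher. The groups did not overlap for any of the 7 genes in either comparison, and for 67.6% and 62.2% of all tested genes. The median log2 change of the 7 was -0.35 in the comparison of pre-miR-29b-1 and -0.31 in that of pre-miR-29a, beside -0.01 and -0.02 over all tested genes. The anti-miR-29a libraries serve in both comparisons, so one is not a repeat of the other.

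The balance over all genes depended on the scaling of the libraries. Quantile normalization turned 2451 higher and 2795 lower genes into 3177 and 2466 with pre-miR-29b-1, and 2613 higher and 2940 lower into 3348 and 2497 with pre-miR-29a. It moved the median of all genes by under 0.1 on the log2 scale. Under it all 7 enzymes stayed below anti-miR-29a in both comparisons, with 5 called lower in each, where 25.9% and 26.3% of all tested genes were.

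**Figure D3:**
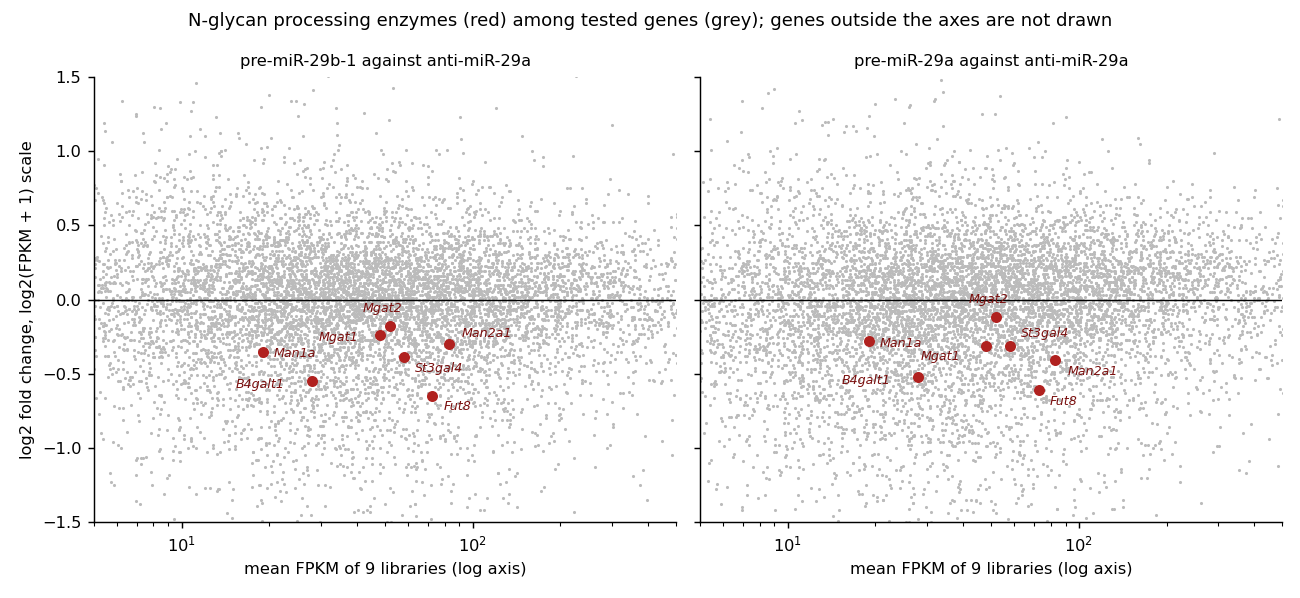
Log2 fold change on the log2(FPKM + 1) scale against mean FPKM over 9 libraries (log axis) for the 7 enzymes (red) and the other tested genes (grey), for each pre-miR against anti-miR-29a. All red points lie below 0, within the cloud of grey points, at changes of -0.65 to -0.12.

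The sizes of the differences can be placed among those of all tested genes. With pre-miR-29b-1, 50.0% of tested genes had a larger change than Mgat1 and 61.4% a larger one than Mgat2. With pre-miR-29a these shares were 43.0% and 75.0%. For St3gal4, Man1a and Man2a1 the share of tested genes with a larger change was 31.2% to 46.2% over both comparisons. For B4galt1 it was 19.1% and 22.1%.

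No difference between the pre-miRs was detected for these enzymes. None of the 7 was called in the comparison of pre-miR-29b-1 with the other pre-miR, where 0.0105% of tested genes were called higher, which is 1 gene, and 0.00% lower (limma). That background was not stable: without pre-miR-29a replicate 1, 625 genes were called higher and 745 lower, still with none of the 7 enzymes among them. At an unadjusted p under 0.05, 0 of the 7 and 1570 of the 9504 genes differed. The libraries of the pre-miR groups overlapped for all 7 enzymes, and failed to overlap for 18.9% of all tested genes. For Fut8 the difference, pre-miR-29b-1 minus pre-miR-29a, was -0.04 on the log2 scale, with an interval of -0.15 to 0.08 (limma adjusted p 0.722). The interval for Mgat2 was -0.17 to 0.06 and for Mgat1 -0.08 to 0.21. Those for St3gal4 (-0.25 to 0.09), B4galt1 (-0.23 to 0.19), Man1a (-0.26 to 0.13) and Man2a1 (-0.07 to 0.30) were wider. None of these intervals shows that the pre-miRs act alike, since differences as large as the smallest ones from anti-miR-29a lie within each. With libraries weighted by estimated quality, Mgat2 (-0.11, limma adjusted p 0.0395) and St3gal4 (-0.16, limma adjusted p 0.0410) were called lower with pre-miR-29b-1, where 19.6% of all tested genes were called lower and 18.6% higher. Those weights ran from 0.213 for pre-miR-29a replicate 1 to 3.54 for pre-miR-29a replicate 3.

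Summed over the 7 enzymes, the level was 440, 416 and 427 FPKM in the anti-miR-29a libraries. It was 329, 326 and 323 FPKM with pre-miR-29b-1 and 330, 315 and 335 FPKM with pre-miR-29a. The sums of the pre-miR groups were alike and lay below every anti-miR-29a sum.

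Because the genes changed by unequal amounts, some of their proportions within a library were also apart between the groups, in ratios that no rescaling of a whole library can move. The ratio of Fut8 to Mgat1 was 1.60, 1.89 and 1.78 with anti-miR-29a. In the pre-miR-29b-1 libraries it was 1.19, 1.38 and 1.39, and in the pre-miR-29a libraries 1.36, 1.43 and 1.48. Each pre-miR library thus lay below every anti-miR-29a library in this ratio. The ratio of Fut8 to Mgat2 averaged 1.72 ± 0.0825 (SD, n = 3) with anti-miR-29a, 1.24 ± 0.0912 for pre-miR-29b-1 and 1.22 ± 0.0363 for pre-miR-29a. The ratio of Fut8 to St3gal4 was 1.41 ± 0.0690, 1.18 ± 0.0363 and 1.14 ± 0.0499 in the same order.

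Of the 21 ratios between the 7 genes, 6 separated the anti-miR-29a libraries from all pre-miR libraries. Fut8 was in 4 of them, over Mgat1, Mgat2, St3gal4 and Man1a, and the others were B4galt1 over Mgat2 and Man2a1 over Mgat2. In each of the 6 the ratio was higher with anti-miR-29a, which follows from writing the gene with the larger change first. The remaining 15 overlapped, among them Mgat1 over Mgat2, at 0.948 to 1.02 with anti-miR-29a and 0.845 to 0.955 with the pre-miRs. Fut8 over B4galt1 also overlapped, at 2.28 to 3.02 with anti-miR-29a and 2.17 to 2.78 with the pre-miRs. So did Fut8 over Man2a1, at 0.944 to 1.05 and 0.706 to 0.986. The ratios are given as a description, and no test was run on them. The share of separated ratios among pairs of other tested genes was not computed. The count of 6 in 21 can therefore not be called high or low.

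**Figure D4:**
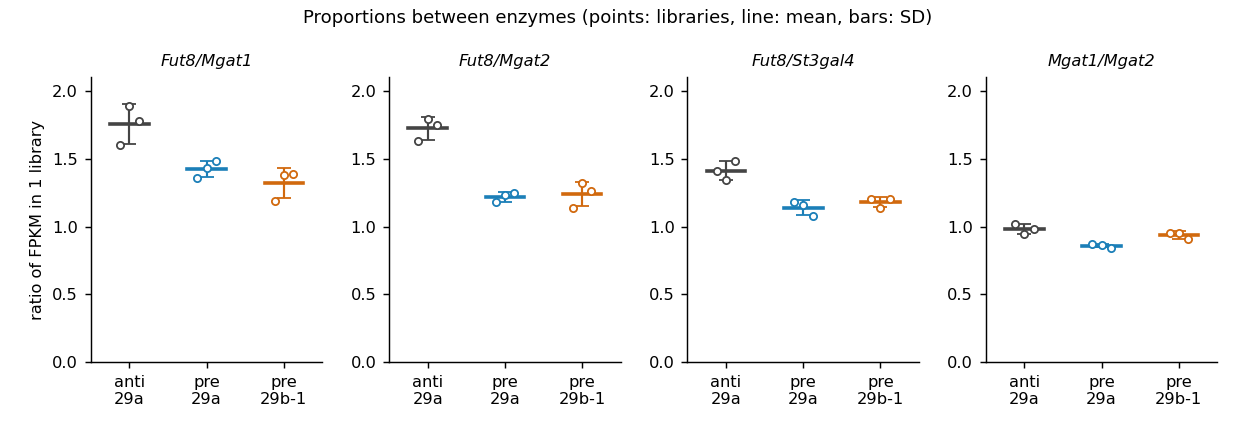
Ratio of FPKM between pairs of enzymes in each library (points), with group mean (line) and SD (bars), by transfected RNA. The ratios of Fut8 to Mgat1, Mgat2 and St3gal4 lie higher in all 3 anti-miR-29a libraries than in the 6 pre-miR libraries, while that of Mgat1 to Mgat2 overlaps. Ratios of Fut8 to B4galt1 and to Man2a1, not drawn, overlap as well.

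The patterns of the 7 genes over the 9 libraries were compared among themselves by Pearson's r of log2(FPKM + 1), as a description without a test. The libraries are shared by all genes and fall into groups, so a common step between anti-miR-29a and the pre-miRs raises every r. Fut8 and St3gal4 were most like each other, at 0.93, and Mgat1 and B4galt1 at 0.91. Man2a1 was most like B4galt1 (0.90), Man1a was most like Man2a1 (0.88) and Mgat2 most like Mgat1 (0.87). The least alike pairs included St3gal4 with Man2a1 and Man1a with Mgat2, each at 0.59. In the pre-miR-29a group, replicate 1 had the highest Man1a, Man2a1 and B4galt1 and the lowest Fut8, St3gal4, Mgat1 and Mgat2.

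Each of the 7 genes had a single gene model, whose exons overlapped those of no other gene. The models were mouse proteins aligned to the hamster assembly, so they cover coding sequence of 789 to 3444 bases and no untranslated regions. Whether each model covers the whole coding sequence of its gene was not checked.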

How the data were processed

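Stranded poly(A) libraries from 2 µg of total RNA were read as single reads on a NextSeq500, per the labels' protocols. The authors deposited 1 table of FPKM, with a row per gene and a column per library. Per the submitters' processing notes, FastQC, TopHat2 2.0.13 and Cuffnorm were used. The version, scaling and strand setting of Cuffnorm were not given in the sources used here. Gene models came from aligning the mouse proteins of Ensembl release 66 to CriGri_1.0, per the file headers. Of 22473 models, 99.87% had lengths that are multiples of 3, so lengths are coding lengths.

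Depth came from low values: FPKM times (coding length - 190 bases) fell in steps of 1 read, with 200 bases in place of 190 for pre-miR-29a replicate 2. In genes of at least 500 bases with 1 model and no shared bases, 100% of values worth 5 reads or fewer were whole to within 0.1 read. Implied reads are in the unit Cuffnorm divided by, and intervals from them cover counting error only.

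The log2(FPKM + 1) values were computed from the deposited table and tested with limma 3.58.1 (R 4.3.3), letting the prior variance depend on mean level. The filter, a mean of 1 FPKM or more, left 9504 genes, among them all 7 enzymes. All 9 libraries entered 1 fit. The two-sided p-values were adjusted by Benjamini-Hochberg over all tested genes within each of 3 comparisons and a threshold of 0.05. Alternatives changed the pseudocount, filter, scaling, library weights, libraries in the fit and replicate block, or dropped 1 library at a time. The named genes are the 7 enzymes. Genes and tests were chosen with earlier results of these data known. Other genes of the pathway and known miR-29 targets were to be named only if their symbols could be checked against hamster proteins. No such table was used here, so they are not reported. For the same reason no protein, promoter or microRNA sequence is printed.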

Additional observations from a re-analysis of the deposited data

How the results depend on the processing

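In both comparisons with anti-miR-29a, all 7 enzymes stayed lower with the pre-miR under each of 15 alternatives. The number called lower with pre-miR-29b-1 was 5 to 7 over these alternatives (6 to 7 with 1 library left out), and with pre-miR-29a 5 to 6 (5 to 6 with 1 library left out), with the lost calls named beside the results. Fut8, B4galt1, St3gal4 and Mgat1 stayed past the threshold in all of them. Between the pre-miRs, array weights moved the number of enzymes called lower from 0 to 2, and that of all tested genes from 0 to 1863 lower and from 1 to 1764 higher. Leaving out 1 library gave 0 to 0 enzymes, while without pre-miR-29a replicate 1 all genes gave 745 lower and 625 higher. The difference of B4galt1, -0.02, turned to 0.02 with array weights and ranged from -0.06 to 0.04 without 1 library, and that of Man1a, -0.06, from -0.14 to 0.04. Both turned without pre-miR-29a replicate 1, and neither passed the threshold in any alternative. The cause was not tested. Between libraries that carry the same number in different groups, deviations from the group means had an r from -0.02 to 0.29, above 0.1 for 6 of 9 pairs. Each of the 9 libraries correlated best with a library of its own number, so the numbers may pair the libraries. What libraries of the same number share was not tested, and the main fit did not use the numbers as a block. With a replicate block, 7, 6 and 0 enzymes were called lower in the 3 comparisons, as without it, but between the pre-miRs the block raised the number of all genes called to 168 higher and 16 lower. Depth limits B4galt1 most, where counting alone gives an SD of 5.82%.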
